A study of Microcebus murinus with 18 samples.

Results

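The autophagy and lysosome genes described here are a list of 53 genes fixed by name: 7 cathepsins, 8 other lysosomal hydrolases, 3 soluble lysosomal cofactors, 6 lysosomal membrane proteins, 9 subunits of the vacuolar proton pump (V-ATPase), 7 genes of autophagy initiation and control, 7 of the autophagy conjugation systems, 3 autophagy receptors, and 3 genes of vesicle sorting and protein extraction. They were measured in temporal cortex RNA of 18 grey mouse lemurs (*Microcebus murinus*, a small primate): 6 young adult animals (4 females and 2 males), 10 old animals free of the disease signs (7 females and 3 males), and 2 old females called AD-like because their brains had β-amyloid plaques and cortical atrophy. None of the groups carried a transgene or received a treatment in the labels, and each animal gave 1 array. The arrays were human HG-U133 Plus 2.0 arrays, so each signal depends on how well a human probe set matches the lemur transcript. A probe set is a group of probes that reads 1 stretch of a transcript, and a gene can have several.

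The lysosome is the acidic compartment in which cells break down proteins, lipids and glycans. The V-ATPase pumps protons into it, hydrolases such as the cathepsins cut its contents, and membrane proteins such as LAMP2 form its wall. In macroautophagy a double membrane forms around cytoplasmic cargo after the ULK and BECN1-PIK3C3 complexes start it, the ATG conjugation enzymes attach LC3 proteins to that membrane, receptors such as SQSTM1 bring in cargo, and the closed vesicle fuses with the lysosome. Neurons depend on this route to clear damaged organelles and aggregated proteins, and it has been studied widely in ageing and Alzheimer's disease.

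Of the 53 genes, 52 had a probe set that carries only their symbol. The exception was GLB1 (lysosomal β-galactosidase), whose probe set is shared with TMPPE. Together they had 139 probe sets of the 54613 on the array that are no controls. A probe set was kept for testing where the third-highest of the 18 signals was at least 150 (signals are linear, scaled by the authors to a trimmed mean of 100 on each array), which left 65 probe sets of 42 genes among 14567 kept in all. The 10 other genes had no probe set that reached this level: CTSD, CTSZ, GUSB, LAMP1, ATP6V1E1, ATP6AP1, ULK1, ULK2, ATG12 and ATG16L1. For CTSD, the aspartic protease of the lysosome, the third-highest signal was 58.0 on its brightest probe set, and for LAMP1, the most used marker of the lysosomal membrane, it was 82.9. The highest such value among these genes was 124 for ATG12, a ubiquitin-like protein joined to ATG5. A low signal from a human probe set does not show that the lemur gene was silent.

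Array medians lay between 30.7 and 54.4, and no pair of arrays reached a Spearman correlation above 0.778, so each was taken as a separate array. Neuron markers were all kept (8 of 8), with 5 of 6 astrocyte markers (GFAP, the defining filament of astrocytes, was not kept), 5 of 6 oligodendrocyte markers, 2 of 12 microglia markers (ITGAM and P2RY12) and 3 of 6 endothelial markers. The summed signals of the neuron markers ranged from 16350 to 58720 in young adult animals and from 34970 to 58910 in old animals, and were 50910 and 23940 in AD-like F1 and F2. In pieces of tissue, fewer cells of a type and less RNA in each cell cannot be told apart. On 4 arrays (AD-like F2, old M1 and M2, and young adult M2) the poly-A control RNA gave no clear signal: its dap control stayed at or under 19.0 there, while the 14 remaining arrays had 334 or more. Below, arrays without or with poly-A control RNA are named by this dap signal alone. The labels do not say whether the RNA was added to an array.

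Between old and young adult animals the autophagy and lysosome genes as a group did not move in 1 direction. The lysosomal membrane tetraspanin CD63 was the only probe set of the 65 past an unadjusted p of 0.05 by limma, with a higher level in old animals (1.54% of members, where 3.49% of all 14567 probe sets were called higher). None was lower, where 2.42% of all probe sets were. After Benjamini-Hochberg adjustment over all kept probe sets limma called 0 members, as it called 0% of all probe sets, and the smallest adjusted p among members was 0.836. The median difference of the 65 probe sets was -0.07 on the log2(signal + 16) scale, old minus young adult, against 0.03 over all kept probe sets, and 29 of 65 were above 0. With 1 probe set for each of the 42 genes the median was 0.05.

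Between AD-like and old animals 3 member probe sets were lower at an unadjusted p under 0.05: 2 of MAP1LC3A, the microtubule-associated LC3 protein that marks autophagosomes, and 1 of RAB7A, the small GTPase that brings late endosomes and autophagosomes to the lysosome. That is 4.62% of the members, where 3.62% of all probe sets were lower. None was higher, where 1.22% of all were. After adjustment limma called 0 members (smallest adjusted p 0.954) and 1 probe set in all, which is 0.00686%. The median difference was 0.15, AD-like minus old, against -0.02 over all kept probe sets, with 40 of 65 above 0, and with 1 probe set for each gene it was 0.04. The 3 calls became 11 without AD-like F1, 11 with sex as a covariate and 9 among females alone, where the share of all probe sets called rose too, from 4.84% to 7.68%, 11.02% and 12.02%, and they became 1 without old F1, F3, F5 or F7. On linear signals the methods' t-test called 2 higher (VCP on 208649_s_at and RAB7A on 223760_s_at) and 0 lower in place of 0 higher and 3 lower, with 0 members after adjustment. The share of all probe sets is not given for the fits without an old animal or for the t-test.

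Between AD-like and young adult animals limma called CD63 and VCP (an ATPase that extracts ubiquitinated proteins) higher and TPP1 (the lysosomal protease tripeptidyl peptidase) and RAB7A lower at an unadjusted p under 0.05. These were 3.08% of members in each direction, against 1.13% higher and 3.21% lower over all probe sets. After adjustment there were 0 members (smallest adjusted p 1.00) and 0% of all. The count was 10 without AD-like F1 and 2 without young adult F4, where the share of all probe sets called went from 4.34% to 6.38% and 3.89%. The 3 comparisons share animals, so a gene that appears in more than 1 of them is not seen independently in each.

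No kept member had both AD-like animals above all 10 old animals, where 1.39% of all kept probe sets had, or below them, where 1.63% had. Likewise none had both above all 16 other animals (0.474% of all) or below them (0.638%). The AD-like group holds 2 animals, and the model takes their spread from the larger groups. The number of animals limits the precision throughout.

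**Figure D1:**
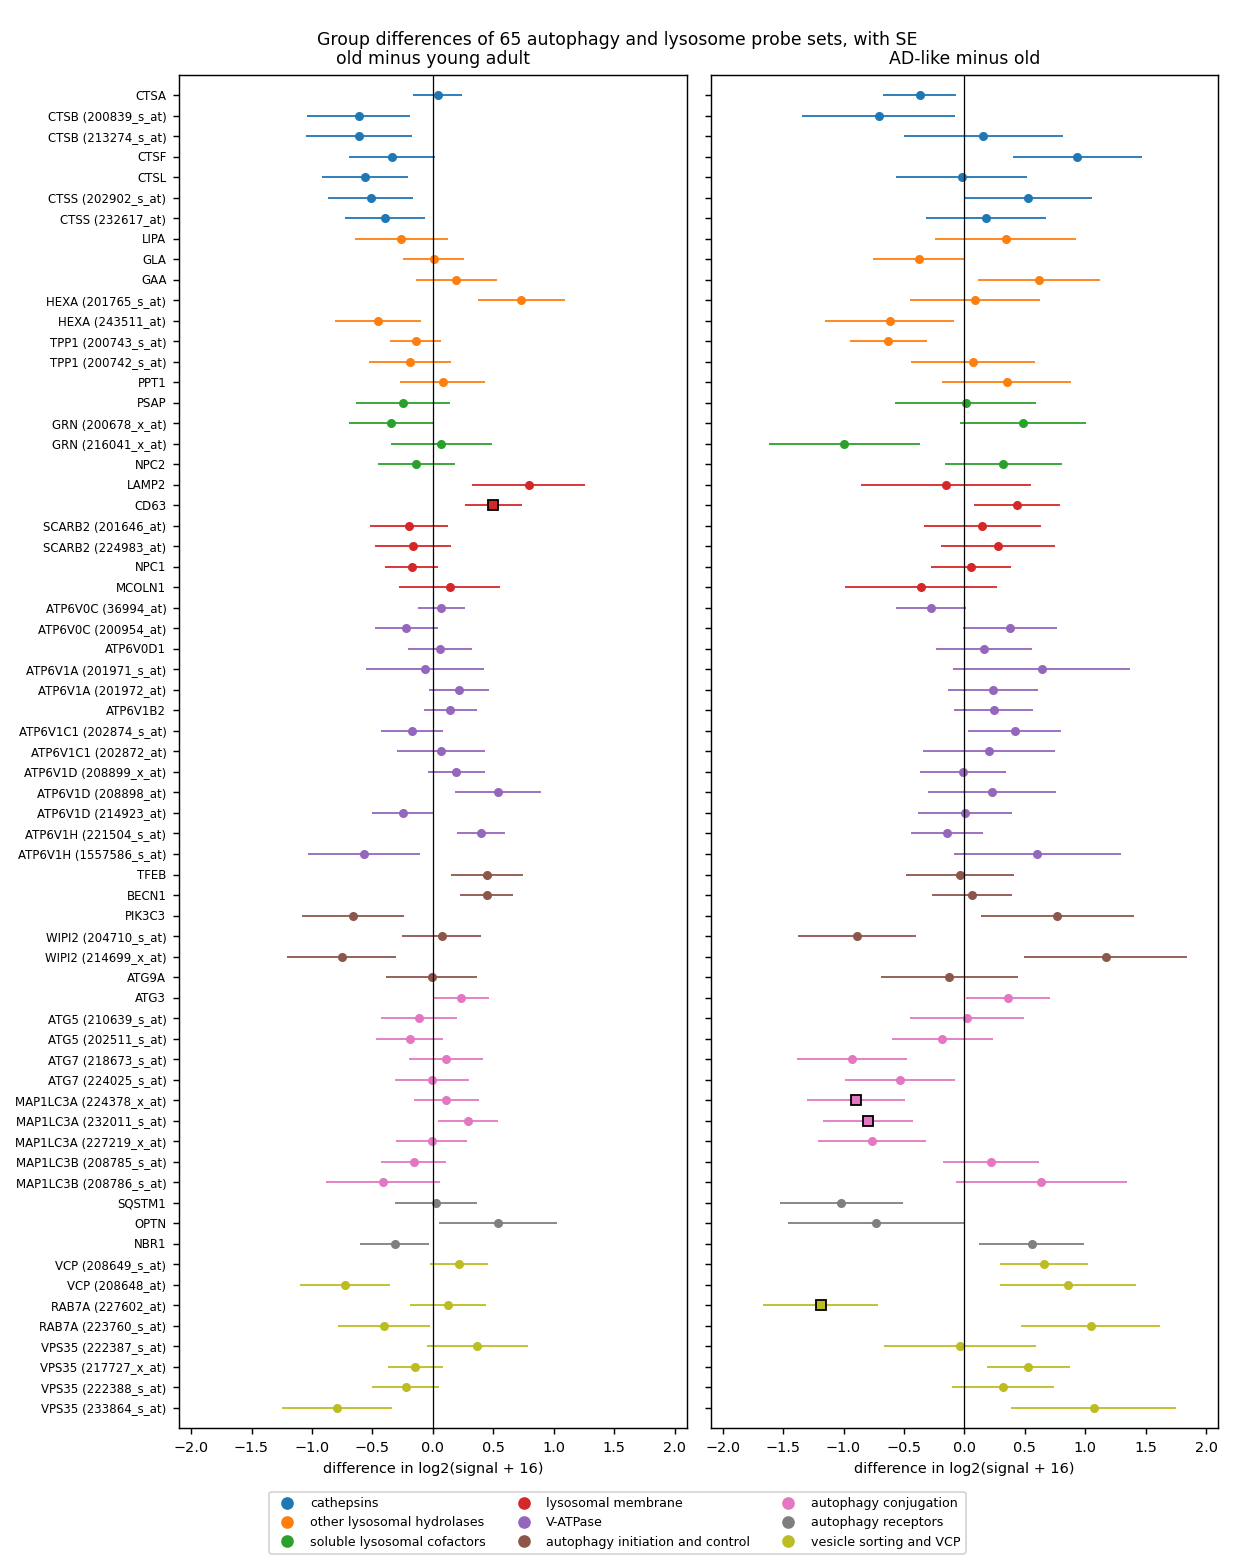
Difference in log2(signal + 16) for each of the 65 kept probe sets, old minus young adult (left) and AD-like minus old (right), with the SE from limma as bars, coloured by subgroup, and outlined squares at an unadjusted p under 0.05. CD63 is the only square on the left at 0.50, and the 3 squares on the right are MAP1LC3A at -0.90 and -0.80 and RAB7A at -1.19.

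Cathepsins, the main proteases of the lysosome, had a lower mean in old than in young adult animals on 6 of 7 kept probe sets, with a median difference of -0.51, but none passed the test. Over the whole array 6718 of 14567 kept probe sets had a lower mean in old animals. The 7 probe sets belong to 5 genes, and with 1 probe set for each gene the mean was lower for 4 of 5 (median -0.51). The cysteine protease CTSL had signals from 156 to 341 (median 262) in young adult animals, from 30.99 to 307 (median 206) in old animals, and 266 and 91.9 in AD-like F1 and F2. Most old animals lay within the young adult range, and the difference of -0.56 ± 0.36 (SE) had an exact permutation p of 0.153. CTSB, another cysteine protease, gave -0.61 ± 0.42 and -0.61 ± 0.44 on its probe sets 200839_s_at and 213274_s_at. CTSS, a cysteine protease of immune cells, gave -0.51 ± 0.35 and -0.39 ± 0.33. The ranges overlapped for each of them.

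CTSA, the carboxypeptidase that shields lysosomal β-galactosidase, had one of the smallest spreads among members, from 302 to 810 over the 18 animals. Its median was 551 in young adult and 544 in old animals, a difference of 0.04 ± 0.20. AD-like F1 was at 610 and AD-like F2, at 302, was the lowest of all 18. The cysteine protease CTSF had 46.2 to 161 (median 105) in young adult, 23.4 to 192 (median 77.3) in old, and 163 and 164 in the AD-like animals. Each AD-like animal exceeded 8 of 10 old ones, with a difference of 0.94 ± 0.53 and an exact permutation p of 0.197, where 66 regroupings of the animals allow no p below 0.0152.

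Among the other hydrolases, HEXA (the α subunit of β-hexosaminidase, which degrades gangliosides) showed how much a single animal can weigh. On its brighter probe set, 201765_s_at, young adult signals ran from 21.0 to 261 (median 173), old signals from 117 to 401 (median 270), and the AD-like animals had 287 and 221. Young adult M2 alone held the lowest value, and the next was 147. The difference of 0.73 ± 0.36 had an exact permutation p of 0.0653, and the other probe set, 243511_at, went the opposite way with -0.45 ± 0.36.

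TPP1 signals on 200743_s_at were 240 to 342 (median 279) in young adult animals, 163 to 365 (median 252) in old animals, and 105 and 240 in AD-like F1 and F2. AD-like F1 was below all other animals, and AD-like F2 was also under the lowest young adult by a narrow margin. AD-like minus young adult was -0.77 ± 0.34 (limma unadjusted p = 0.0327, exact permutation p = 0.0357, the smallest that 28 regroupings allow), and it was -0.23 without AD-like F1, where the call was lost, as it was without young adult M2. AD-like minus old was -0.63 ± 0.32, and the probe set 200742_s_at gave 0.07. GLA, α-galactosidase A, had medians of 406 in young adult and 474 in old animals and 420 and 297 in the AD-like animals, with a difference of 0.01 ± 0.25 between old and young adult animals.

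The soluble cofactors are PSAP (the precursor of the saposins that present lipids to hydrolases), GRN (progranulin) and NPC2 (a cholesterol carrier), and none of their 4 probe sets passed the test in any comparison. GRN on 200678_x_at had 82.8 to 401 (median 220) in young adult, 48.6 to 357 (median 181) in old, and 218 and 268 in AD-like animals. These ranges overlapped almost fully, with differences of -0.34 ± 0.35 for old minus young adult and 0.48 ± 0.52 for AD-like minus old. On 216041_x_at the AD-like animals had 26.9 and 114, AD-like F1 was below all 10 old animals (51.2 to 349), and AD-like minus old was -0.99 ± 0.62 with an exact permutation p of 0.136.

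CD63, a tetraspanin of late endosomes, lysosomes and exosomes, was the only called member of the lysosomal membrane group. Its signals were 246 to 590 (median 320) in young adult animals, 321 to 694 (median 546) in old animals, and 560 and 796 in AD-like F1 and F2. All 10 old animals were above the young adult median, although the ranges overlapped: 3 of 6 young adult animals (F2, F3 and M2) were above the lowest old animal. Old minus young adult was 0.50 ± 0.24, a fold of 1.42 on this scale (limma unadjusted p = 0.0462, two-sided exact permutation p = 0.0390, adjusted p in limma 0.836).

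AD-like minus young adult was 0.94 ± 0.37 for CD63 (limma unadjusted p = 0.0205, exact permutation p = 0.0714), and AD-like F1 lay inside the young adult range. That difference was 0.69 without AD-like F2, and AD-like minus old was 0.44 ± 0.35. Old minus young adult stayed between 0.41 and 0.65 when any 1 animal was left out, but the call was lost without young adult F1, F3, F4 or M1, or without old F2, F3, F5, F7, M1 or M2. The call was also lost with quantile normalization (0.45), with no filter (0.50) and among females alone (0.55). With the array set as a block the difference was 0.48, and on the 14 arrays that carried poly-A control RNA it was 0.59, both still called.

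LAMP2, which lines the lysosome and in one splice form takes up proteins for chaperone-mediated autophagy, varied most within groups among the membrane members. Its signals were 447 to 2769 (median 1314) in young adult, 416 to 3321 (median 2260) in old, and 2457 and 1190 in AD-like animals. Old M1 at 416 was far under the next old animal at 1254, and 8 of 10 old animals were above the young adult median. The difference of 0.79 ± 0.47 had an exact permutation p of 0.165. For SCARB2 (the receptor that carries glucocerebrosidase), NPC1 (a cholesterol exporter) and MCOLN1 (a calcium channel) old minus young adult lay between -0.19 and 0.14.

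**Figure D2:**
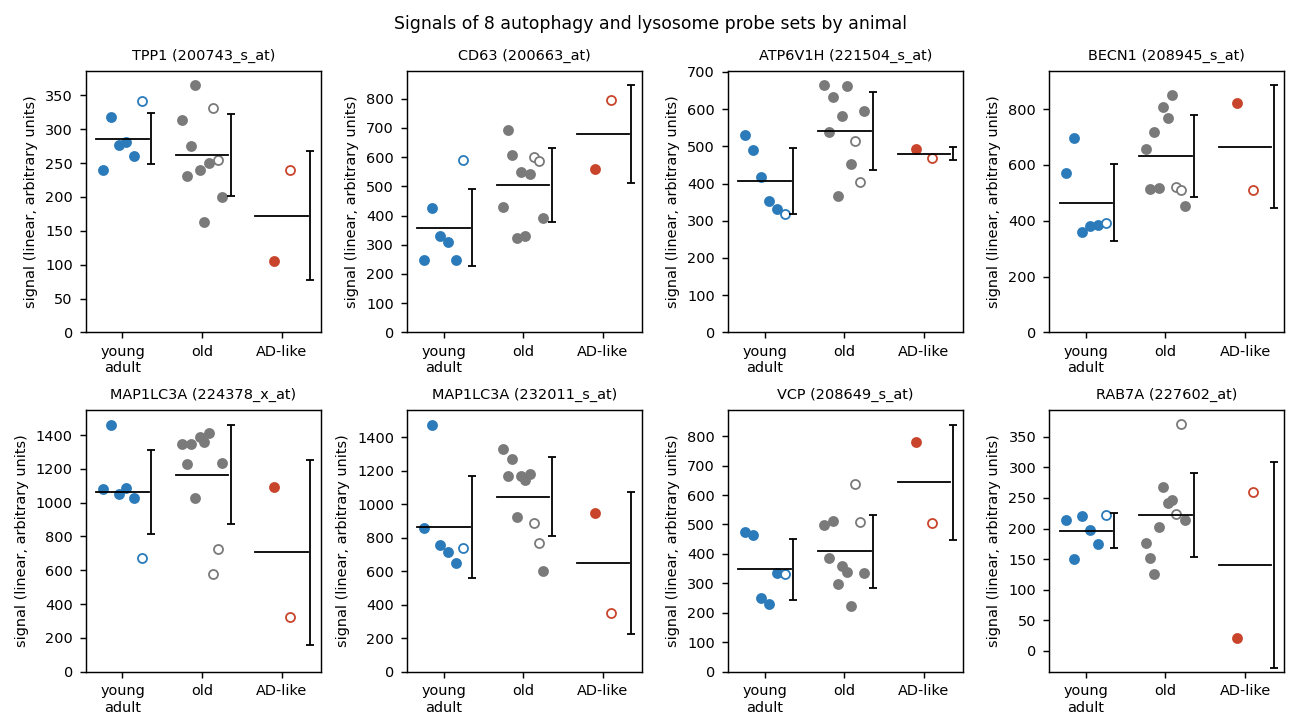
Linear signal of 8 member probe sets in each animal by group, with the mean as a line and the SD as a bar (SD over 6, 10 and 2 animals), and open circles for the 4 arrays without poly-A control RNA. All 10 old animals exceed the young adult median for CD63 and BECN1, while the AD-like values of MAP1LC3A, TPP1 and RAB7A are each pulled down by 1 animal.

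No V-ATPase subunit, part of the pump that acidifies the lysosome and synaptic vesicles, passed the test in limma in any comparison. Of 13 probe sets, 8 had a higher mean in old than in young adult animals (median difference 0.07), against 53.9% of all kept probe sets. AD-like minus old was above 0 for 10 of the 13 (median 0.23), against 48.1% of all kept probe sets. With 1 probe set for each gene this difference was above 0 for 4 of 7 genes (median 0.16). Among 9 kept probe sets of further V-ATPase genes, from the wider list described below, it was above 0 for 4 (median -0.21). The membrane ring subunit ATP6V0C on 36994_at ranged only from 627 to 1174 over all 18 animals, the smallest spread of the 65 probe sets (SD of 0.27 on the log2 scale). ATP6V1D, a subunit of the central stalk, had on 208899_x_at 1401 to 2895 (median 1805) in young adult, 1511 to 3352 (median 2030) in old, and 2499 and 1846 in AD-like animals. Its differences were 0.20 ± 0.24 and -0.01 ± 0.35.

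ATP6V1H, the regulatory subunit of the cytosolic part, had on 221504_s_at 317 to 532 (median 385) in young adult, 366 to 664 (median 560) in old, and 492.5 and 468 in AD-like animals. Of the old animals 9 of 10 were above the young adult median, with a difference of 0.40 ± 0.20 (limma unadjusted p = 0.0579, exact permutation p = 0.0222). The other probe set of the gene, 1557586_s_at, gave -0.57 ± 0.46. ATP6V1C1, another cytosolic subunit, had 186 to 486 (median 326) in young adult, 149 to 413 (median 264) in old, and 296 and 434 in AD-like animals on 202874_s_at, with AD-like minus old at 0.42 ± 0.39.

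Among the genes that start or control autophagy, BECN1 (the scaffold of the lipid kinase complex) came closest to the threshold with age. Its signals were 359 to 697 (median 388) in young adult animals, 453 to 850 (median 589) in old animals, and 820 and 509 in AD-like F1 and F2. All 10 old animals lay above the young adult median, but 2 young adult animals, F1 and F2, reached into the old range. Old minus young adult was 0.44 ± 0.22, a fold of 1.36, with a limma unadjusted p of 0.0555 and an exact permutation p of 0.0287. TFEB, the transcription factor of lysosomal genes, gave 0.45 ± 0.30, and PIK3C3, the lipid kinase bound to BECN1, gave -0.66 ± 0.42.

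Bright probe sets of the whole array had higher means in old animals more often than not. Among 19 member probe sets whose third-highest signal was at least 500, 15 had a higher mean in old animals (78.9%), with a median difference of 0.15. Among all 3922 probe sets as bright, 74.4% had a higher mean in old animals, with a median of 0.18. In AD-like against old animals 8 of these 19 members had a higher mean (42.1%, median -0.04), against 29.6% of all 3922 (median -0.20). The exact permutation p values are unadjusted and were computed for each of the 65 probe sets.

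WIPI2, which binds the lipid made by PIK3C3 and recruits the conjugation enzymes, gave opposite readings. On 204710_s_at the signals were 102 to 252 (median 204) in young adult, 81.2 to 303 (median 196) in old, and 37.7 and 200 in AD-like animals. Only AD-like F1 stood apart, below every other animal, and AD-like minus old was -0.89 ± 0.49. On 214699_x_at AD-like minus old was 1.17 ± 0.68, and AD-like F2 at 264 was above all 10 old animals.

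The conjugation enzymes and LC3 proteins held 2 of the 3 calls between AD-like and old animals. MAP1LC3A had 3 kept probe sets, and all had a lower mean in AD-like than in old animals. On 224378_x_at the signals were 670 to 1461 (median 1067) in young adult, 578 to 1411 (median 1291) in old, and 1095 and 321 in AD-like F1 and F2. On 232011_s_at they were 647 to 1475 (median 746), 601 to 1328 (median 1156), and 948 and 350.7.

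AD-like F2 was below every other animal on all 3 MAP1LC3A probe sets, while AD-like F1 lay within the old range on each. On 227219_x_at these animals had 979 and 202. AD-like minus old was -0.90 ± 0.41 on 224378_x_at and -0.80 ± 0.38 on 232011_s_at (limma unadjusted p = 0.0384 and 0.0456, exact permutation p = 0.0606 and 0.0758), and -0.76 ± 0.44 on 227219_x_at, which was not called. Without AD-like F2 the called differences were -0.04 and -0.10, and without AD-like F1 they were -1.76 and -1.50.

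The call on 224378_x_at was also lost without old F1, F3, F5, F6 or F7. On 232011_s_at it was lost without old F1, F2, F3, F5, F6 or F7 and without young adult F1 or F3. AD-like F2 has one of the arrays that lack poly-A control RNA. On the 14 arrays that hold it, with AD-like F1 as the only AD-like animal, the differences were -0.23 and -0.17. MAP1LC3B, the other LC3 gene on the list, gave 0.22 ± 0.40 and 0.64 ± 0.70 for AD-like minus old.

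ATG7, the E1-like enzyme that activates both conjugation systems, had on 218673_s_at 246 to 801 (median 541) in young adult, 259 to 972 (median 624.8) in old, and 347 and 223 in AD-like animals. AD-like F2 was below all other animals, and AD-like F1 was above 2 of 10 old animals. AD-like minus old was -0.93 ± 0.46 (exact permutation p = 0.0606), and the dimmer probe set 224025_s_at gave -0.53 ± 0.46. For ATG3, the E2-like enzyme for LC3, AD-like minus old was 0.36 ± 0.35, with 893 and 710 in the AD-like animals against 457 to 764 in old animals.

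The autophagy receptors each had 1 kept probe set. SQSTM1 (p62, which links ubiquitinated cargo to LC3) had 41.5 to 174 (median 107) in young adult, 46.8 to 239 (median 99.5) in old, and 75.5 and 23.6 in AD-like animals. OPTN, a receptor for damaged mitochondria, had 28.8 to 358 (median 110), 55.2 to 344 (median 226), and 263 and 32.4. In both genes AD-like F2 was below all 10 old animals and AD-like F1 was not. AD-like minus old was -1.02 ± 0.51 for SQSTM1 and -0.73 ± 0.73 for OPTN, and neither passed the test. NBR1, a receptor related to SQSTM1, had 350.7 and 319 in the AD-like animals against an old median of 236, with a difference of 0.56 ± 0.43.

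RAB7A on 227602_at had 150 to 222 (median 206) in young adult animals, 125 to 372 (median 219) in old animals, and 20.8 and 260 in AD-like F1 and F2. AD-like F1 was the lowest of all 18, while AD-like F2 was above 8 of 10 old animals. AD-like minus old was -1.19 ± 0.47 (limma unadjusted p = 0.0207, exact permutation p = 0.136), and it turned to 0.26 without AD-like F1. AD-like minus young adult was -1.06 ± 0.50 (limma unadjusted p = 0.0459, exact permutation p = 0.250) and turned to 0.39 without AD-like F1. Without AD-like F2 the differences from old and from young adult animals were -2.64 and -2.52, and they then rest on AD-like F1 alone. On 223760_s_at, the other kept probe set of RAB7A, AD-like minus old was 1.04 ± 0.57.

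VCP on 208649_s_at had 229 to 475 (median 334) in young adult, 223 to 636 (median 372) in old, and 782 and 505 in AD-like animals. Both AD-like animals were above all young adult animals, and AD-like F1 was also above all old animals. AD-like minus young adult was 0.87 ± 0.38, a fold of 1.83 (limma unadjusted p = 0.0331, exact permutation p = 0.0714). It was 0.57 without AD-like F1, where the call was lost, as it was without young adult F3 or F4. The dimmer probe set 208648_at gave 0.13 for the same comparison and -0.73 ± 0.37 for old minus young adult. VPS35, the core of the retromer that returns receptors from endosomes, had 4 kept probe sets, from -0.79 to 0.37 for old minus young adult and from -0.04 to 1.07 for AD-like minus old.

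**Figure D3:**
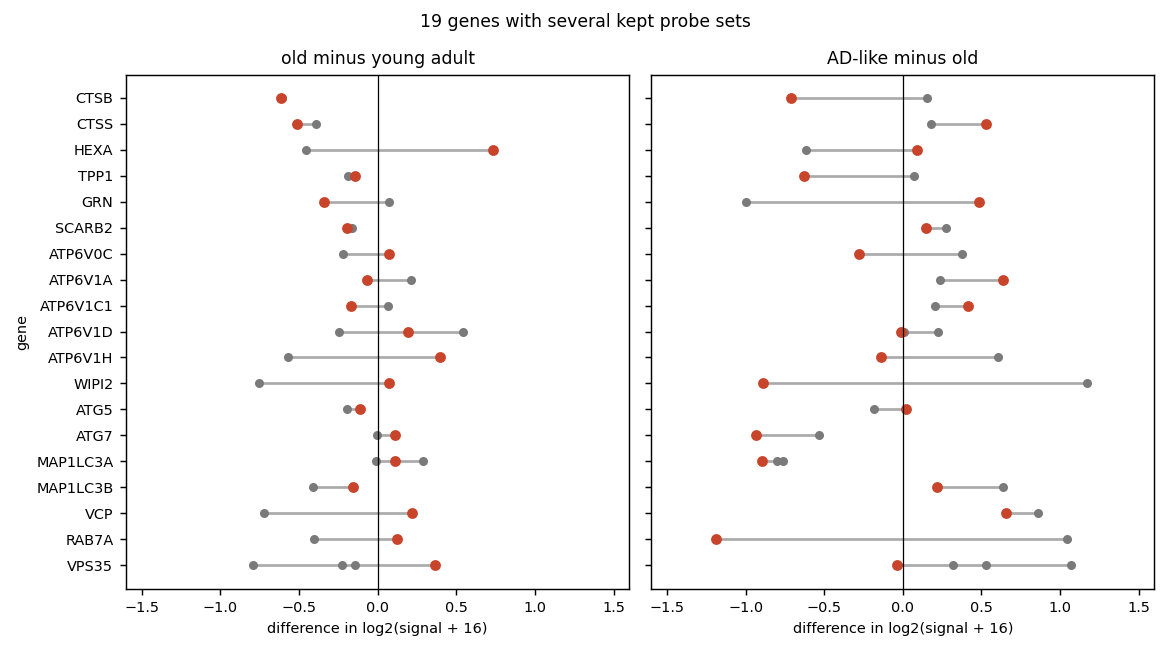
Differences in log2(signal + 16) for the 19 genes with more than 1 kept probe set, old minus young adult (left) and AD-like minus old (right), where each point is a probe set, the red point is the brightest by mean signal, and the line joins the lowest to the highest. In 13 genes on the left and 11 on the right the points lie on both sides of 0, with RAB7A and WIPI2 the widest on the right.

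Different probe sets of a gene thus often differed in sign. Of 19 genes with more than 1 kept probe set, the signs of old minus young adult differed within 13, and the signs of AD-like minus old within 11. Some of these differences were close to 0, such as -0.01 and 0.11 for ATG7 in old minus young adult. The share over all genes of the array with several probe sets is not given, so these counts are not read as particular to the members. MAP1LC3A and ATG7 were among the genes whose probe sets all had the same sign for AD-like minus old. The spread within groups was that of the array as a whole: the median SD over the 65 probe sets was 0.57 on the log2 scale in young adult and 0.57 in old animals, against 0.59 and 0.57 over all kept probe sets.

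More members differed between the 2 sets of arrays than between groups, a comparison chosen after the data were seen. In a limma model of group and array set, 10 of the 65 probe sets differed between the 4 arrays without and the 14 with poly-A control RNA at an adjusted p under 0.05. Of these 5 were higher without it (7.69%, where 6.95% of all probe sets were) and 5 were lower (7.69%, where 8.78% were), so the members' share was near that of the array. MAP1LC3A on 224378_x_at was at 321 in AD-like F2, 578 in old M1, 728 in old M2 and 670 in young adult M2, and at 1028 to 1461 on the other 14 arrays, without overlap. The array-set difference, without minus with, was -1.03 ± 0.19 (adjusted p in limma 0.00345).

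Autophagy members made up 3 of the other 4 that were lower on those arrays. ATG7 on 218673_s_at was at 223 to 332 without and 347 to 972 with poly-A control RNA, again without overlap, a difference of -1.03 ± 0.25. The difference was -1.75 ± 0.40 for OPTN and -1.02 ± 0.31 for SQSTM1, with overlapping ranges. On the arrays without the control RNA these probe sets reached at most 89.6 and 77.8, so they were kept through the other arrays alone, and the filter favoured these differences. It was -1.36 ± 0.44 for LAMP2, the remaining member of the 5. Over the 10 conjugation probe sets the median array-set difference was -0.53, and over the 3 receptors it was -1.02. Other subgroups went the opposite way, with 0.78 over initiation and control, 0.74 over vesicle sorting and VCP and 0.54 over the soluble cofactors. The median was 0.28 over all 65 members and -0.02 over all kept probe sets.

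Higher on the same 4 arrays were VPS35 on 222388_s_at, PPT1 (a lysosomal thioesterase), PIK3C3, GRN on 216041_x_at and ATP6V1H on 1557586_s_at. VPS35 had 355 to 527 without and 146 to 339 with poly-A control RNA, without overlap, a difference of 0.96 ± 0.23. ATP6V1H had 241 to 474 without and 6.05 to 198 with it, also without overlap, a difference of 1.70 ± 0.37. No overlap between the 4 and the 14 arrays was thus seen for 2 members in each direction (3.08%), where 2.98% of all kept probe sets were above and 1.8% below on the arrays without the control RNA. This ATP6V1H probe set is the dimmer one, which disagreed with the brighter one on age. Whether the array set had a part in that disagreement was not tested. With sex also in the model its array-set difference was 1.32 (adjusted p in limma 0.133).

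Of the 4 arrays 3 are from males, of which there are 5, so array set and sex are largely entangled. With both in the model limma called 1 of 65 members for array set, MAP1LC3A on 224378_x_at at -1.07 (adjusted p 0.0355), beside 2.41% of all probe sets, and 0 members for sex. Without 1 animal at a time the count of 10 ranged from 5 (without young adult M2 or old M2) to 13 (without young adult M1), and it was 6 without either AD-like animal. The share of all probe sets in these fits is not given, so these changes are not read as results about the members. The log2 ratio of the actin 3' to 5' control probe sets also moved with the array set. It was -1.55 in young adult M2, -0.89 in old M1, -0.76 in old M2 and -0.46 in AD-like F2, and from -3.27 to -1.91 on 12 of the 14 other arrays (old F4 had -0.40 and old F6 -1.28). Its part in the array-set differences was not tested. In every group but the AD-like one the 4 arrays are the minority, while in the AD-like group they are 1 of 2.

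**Figure D4:**
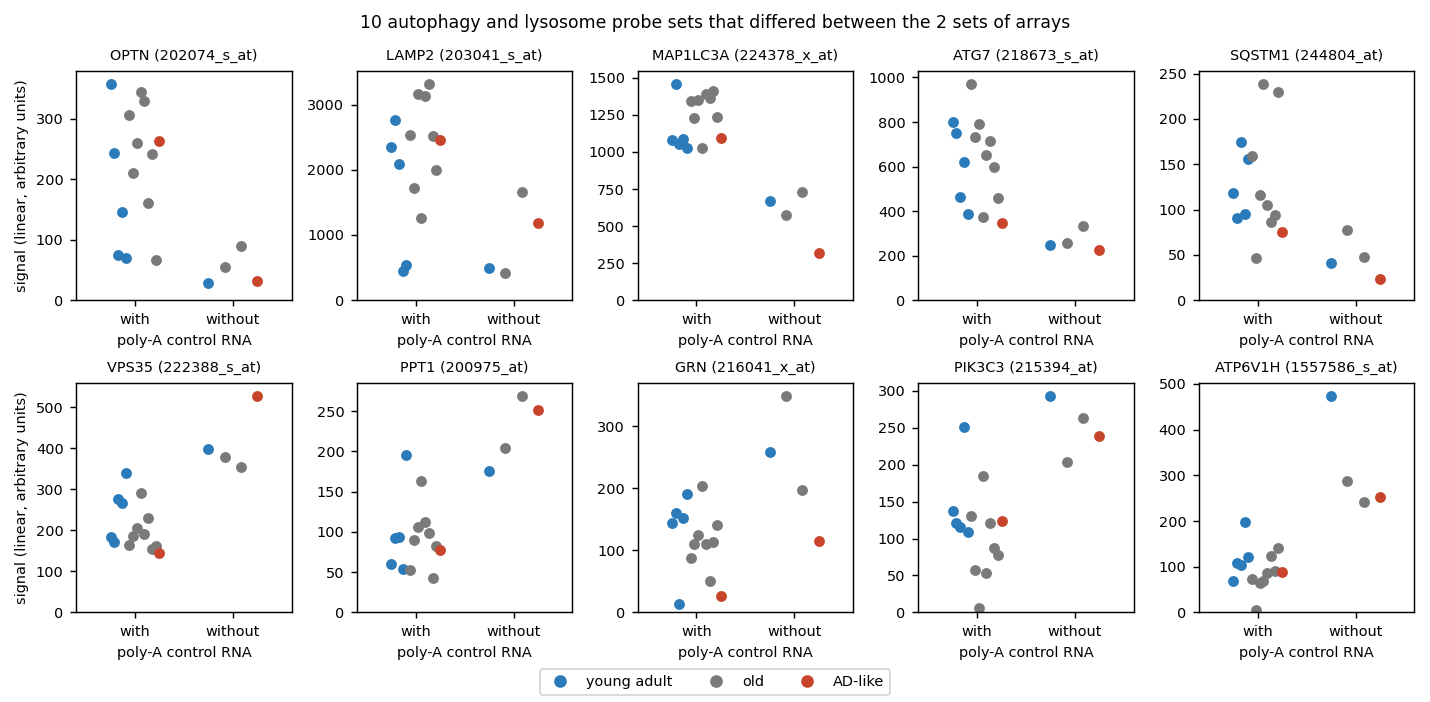
Linear signal of the 10 member probe sets that differed between arrays with (14) and without (4) poly-A control RNA, in each animal, coloured by group. The upper row is lower without the control RNA, and the sets do not overlap for MAP1LC3A, ATG7, VPS35 and ATP6V1H.

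Seen animal by animal, AD-like F2 had the lowest median of all 18 over the conjugation probe sets (-1.003, relative to the mean of each probe set) and over the receptors (-1.50), and the highest over vesicle sorting and VCP (0.93). AD-like F1 had 0.09, 0.46 and 0.28 for the same subgroups. Young adult M2 had -0.26, -0.97 and 0.32, old M1 had -0.44, -0.26 and 0.43, and old M2 had -0.26, -0.76 and 0.49. The 3 other arrays of the set without poly-A control RNA thus lay on the same side as AD-like F2 in each of these subgroups, as did young adult M1, whose array had it, with -0.32, -0.35 and 0.21. Old M3, whose array also had it, had -0.27, -0.29 and -0.47. Every male thus had a negative median over the conjugation and the receptor probe sets, with or without the control RNA.

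**Figure D5:**
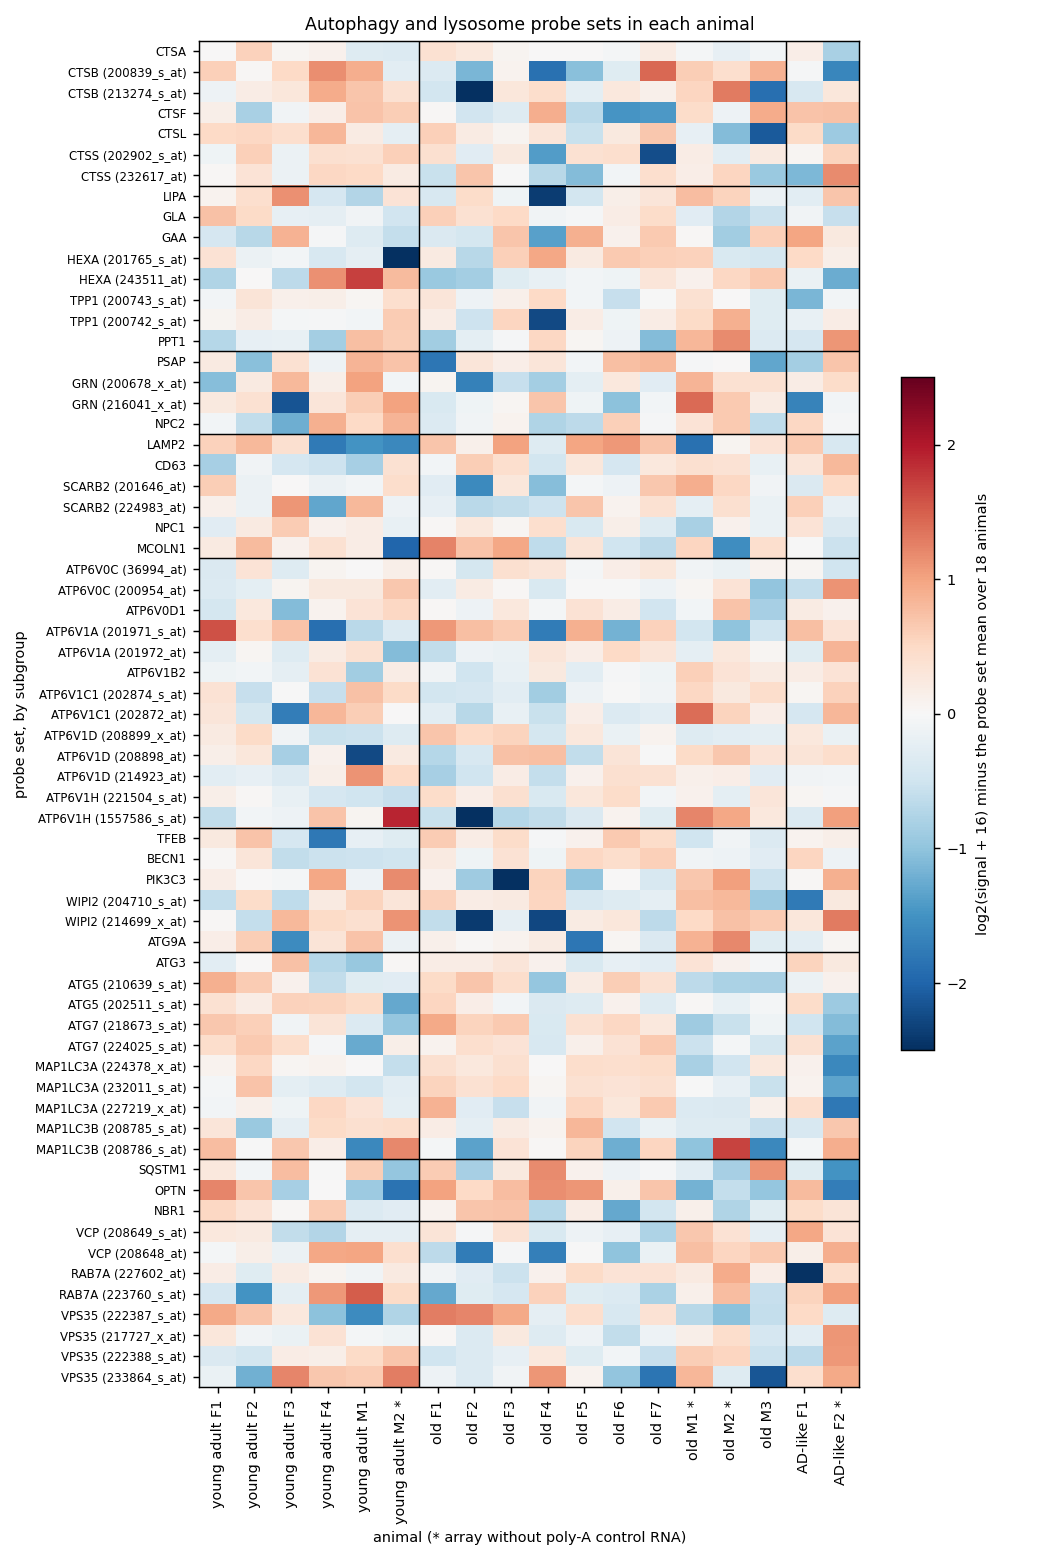
Deviation of log2(signal + 16) from the probe set mean for the 65 kept probe sets (rows, by subgroup) in 18 animals (columns, by group, with * for arrays without poly-A control RNA); colours saturate at the ends of the scale. AD-like F2 is the bluest column in the conjugation and receptor rows, with a subgroup median of -1.003 and -1.50, and the darkest cell of AD-like F1 is RAB7A on 227602_at.

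Age differences of the members were also compared between sexes, over young adult and old animals. No member had an interaction of sex and age past an unadjusted p of 0.05 by limma, and the smallest adjusted p was 0.981. Males are few (2 young adult and 3 old), so this comparison has little precision. The share of all probe sets past the same threshold is not given, so the absence of calls is not read as a result about the members.

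A wider list of 103 further genes of the lysosome, V-ATPase, autophagy and endosomal sorting had 73 kept probe sets of 56 genes. In old against young adult animals an unadjusted p under 0.05 was reached by 3 that were higher and 2 that were lower (6.85%, against 5.91% of all probe sets), and 0 after adjustment in limma. The higher were ATG14 (the subunit that directs the BECN1-PIK3C3 complex to autophagosomes) at 0.74, LAMTOR5 (a subunit of the Ragulator complex at the lysosome) on 202299_s_at at 0.80 and VPS26A (a retromer subunit) at 0.61. The brighter LAMTOR5 probe set, 202300_at, gave -0.16. The lower were VPS39 and VPS18 (tethering factors of lysosome fusion) at -1.16 and -0.54.

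In AD-like against old animals ATG14 was lower and VPS39 higher at an unadjusted p under 0.05 (2.74% of the wider list, against 4.84% of all probe sets). ATG14 signals were 76.1 to 233 in old and 34.3 and 36.1 in AD-like animals, without overlap, a difference of -1.52 (limma unadjusted p = 0.000983, adjusted p 0.447). Young adult signals of ATG14 were 29.4 to 133.2, so the AD-like values lay within the young adult range. Because ATG14 was kept through old animals alone, the filter also favoured its lower level in AD-like animals. VPS39 differed by 1.67 (limma unadjusted p = 0.0179). In AD-like against young adult animals only the transcription factor TFE3, a relative of TFEB, was called, on 206649_s_at at -1.01 (1.37% of the wider list, against 4.34% of all probe sets). Its brighter probe set, 212457_at, gave 0.06. The old animals are the same in both comparisons of ATG14 and VPS39, so their opposite signs are not independent.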

How the data were processed

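The authors scanned 1 array for each of the 18 animals with GCOS 1.2, as the submitters' processing notes name it, and the deposited values are intensity on a linear scale, brought by the authors to the same trimmed mean (100) on every array. Calls of presence or absence were not used here. Probe sets were named by the platform annotation, and those with several symbols were not named. Probe sets with a third-highest signal of at least 150 were kept, signals were transformed to log2(signal + 16), and the 3 groups were compared in 1 model of all 18 arrays with limma 3.58.1 (R 4.3.3), with Benjamini-Hochberg adjustment over the 14567 kept probe sets. For single probe sets, exact permutation tests (two-sided) ran over 8008, 66 or 28 regroupings (Python 3.11.15, scipy 1.17.1). The limma step was tested on simulated data.

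Members, lists and tests were chosen with earlier results of these data known. Named in the text were members at an unadjusted p under 0.05, and in each subgroup those with the highest mean signal or the smallest p; others are given in a clause or as counts, and of the wider list those at an unadjusted p under 0.05. Nothing states more than 1 sample for each animal, so p-values measure the spread between these animals. Labels that share a number were not taken to pair animals, since this required every pair's deviations from group means to correlate above 0.1: of 10 pairs 7 did (0.10 to 0.47), while young adult F3 and old F3 correlated at 0.06 and AD-like F2 at -0.27 and -0.25 with young adult F2 and old F2. Alternatives for the offset, normalization, filter, variance model, covariates, array set and each animal were run. The columns of the deposited tables all matched a labelled sample.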

Additional observations from a re-analysis of the deposited data

Results flagged for a closer look

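In groups of 6 young adult or 10 old animals, 48 sets of values of named probe sets were searched for an animal far from its group by Dixon's criterion, and 4 were found, where chance would find about 1 in 20. HEXA on 201765_s_at was 21.0 in young adult M2, and the next lowest young adult had 147. GRN on 216041_x_at was 14.3 in young adult F3, with the next at 144. LAMP2 on 203041_s_at was 416 in old M1, with the next old animal at 1254. MAP1LC3A on 232011_s_at was 1475 in young adult F2, with the next at 858. The arrays of young adult M2 and old M1 gave no clear signal of poly-A control RNA, and the other 2 did.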

How the results depend on the processing

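At an unadjusted p under 0.05 the single member called between old and young adult animals became 2 (offset 50, quantile normalization, array weights, GAPDH 3' to 5' ratio as a covariate), 3 (median centring, no filter with all 3 lower, signals of at least 500, arrays with poly-A controls only, the methods' t-test, 0 adjusted), 4 (trend in the variance) and 6 (sex as a covariate, array set as a block), with a range of 0 to 7 when 1 animal was left out. In AD-like against old animals the 3 became 5 (array set as a block, GAPDH ratio), 6 (quantile normalization, no filter), 9 (females only) and 11 (sex), with 1 to 11 when 1 animal was left out. In AD-like against young adult animals the 4 became 8 (no filter) and 2 (signals of at least 500, array weights), with 2 to 10 when 1 animal was left out. The label number as a replicate block, which was not taken to pair the animals here, gave 3, 15 and 10 calls, beside 6.75%, 15.49% and 12.7% of all probe sets. Apart from that block, the counts are given here without the share of all probe sets, so their changes are not read as results about the members. With no filter all 139 member probe sets were tested, and with signals of at least 500 only 19, so those counts are not out of 65. Medians ranged from -0.14 to -0.01, 0.05 to 0.20 and 0.00 to 0.22 when 1 animal was left out, and moved to 0.15, -0.0375 and 0.26 with signals of at least 500, and to -0.0466 for AD-like against young adult animals on arrays with poly-A controls only. RAB7A on 227602_at turned to 0.26 (AD-like minus old) and 0.39 (AD-like minus young adult) without AD-like F1, and was -2.64 and -2.52 without AD-like F2. Of 33 alternatives, the call was lost or turned in 13 for CD63 (old against young adult), 8 and 13 for MAP1LC3A on 224378_x_at and 232011_s_at (AD-like against old) and 6 for VCP (AD-like against young adult), and of 32 it was lost in 4 for TPP1, and lost in 19 and turned in 1 for RAB7A (both AD-like against young adult). The 10 members that differed by array set were 1 with sex as a covariate, and 5 to 13 when 1 animal was left out. The methods' t-test gives no log2 median. Where a cause is not given, the cause was not tested. Weak signals of human probe sets on lemur RNA and the 2 AD-like animals limit what could be called: an absent call does not show equal expression.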

Other observations

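Of the 74 member probe sets that were too dim to be kept, 3 had both AD-like animals above all 16 others (4.05%, against 1.01% of all 40046 probe sets not kept), and they were chosen here after their values were seen. LAMP2 on 200821_at had 66.2 and 52.8 in the AD-like animals and at most 45.7 in young adult and 51.6 in old animals. RAB7A on 211960_s_at had 89.2 and 78.4 in the AD-like animals, and at most 63.2 in young adult and 54.7 in old animals. ATP6AP1 on 207809_s_at had 128 and 88.0, with at most 77.1 and 86.8. Among kept probe sets, AD-like minus old was -0.16 for LAMP2 on 203041_s_at. It was 1.04 for RAB7A on 223760_s_at and -1.19 on 227602_at, which turned to 0.26 without AD-like F1.

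CTSB on 200838_at, also not kept, had 12.7 to 41.2 in old animals, 26.1 to 113 in young adult animals, and 72.3 and 93.9 in the AD-like animals, so none of the 10 old animals reached the young adult median of 62.6. The other CTSB probe sets not kept, 227961_at and 213275_x_at, had 5 and 4 of 10 old animals above their young adult medians. This probe set, 200838_at, was also picked after its values were seen, and the share of all dim probe sets with such a pattern is not given. All these signals are under the level kept for testing.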
